A study of Mus musculus with 14 samples.

Results

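The p53 targets and apoptosis genes described here are 10 genes of the mouse embryonic stem cell (ESC), chosen by name from the 22376 genes of an RNA-seq table. They are Trp53, Mdm2, Ccng1, Trp53inp1, Bbc3, Pmaip1, Bax, Bcl2l11, Mcl1 and Casp2, and all 10 had 1 row in that table. The study asked which RNAs the RNase III enzyme Drosha cuts outside the primary miRNA transcripts. RNA-seq was made from 3 control and 3 Drosha-deficient samples. Degradome-seq captures polyA RNA with a 5′ monophosphate and so reads the 5′ ends of such RNA. It was made from 2 control and 2 Drosha-deficient libraries and from 2 control and 2 Dicer-deficient libraries.

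All Drosha libraries came from ESCs that were Drosha fl/fl with CreERT2 at the Rosa26 locus. Controls received no treatment, and the Drosha-deficient cells received 100 nM 4-hydroxytamoxifen for 72 h and were then kept without it for 48 h. The controls therefore lacked the drug as well as the deletion, and the effects of the drug, of active Cre and of Drosha loss cannot be told apart. All Dicer libraries came from Dicer fl/fl ESCs that carried a retrovirus, with GFP alone in the controls and with GFP and Cre in the Dicer-deficient cells. These cells were sorted for GFP 3 days after transduction and cultured for 2 days more. All cells grew on inactivated mouse embryonic fibroblasts, and nothing in the labels says that replicates were separate derivations, so the p-values measure only the spread between these samples.

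p53, the product of Trp53, is a transcription factor that is held low by the ubiquitin ligase Mdm2 and that accumulates after DNA damage. Its targets include Mdm2 itself, genes that slow the cell cycle and genes of the mitochondrial death pathway. In that pathway BH3-only proteins bind the guards of the BCL2 family, pore-forming members such as Bax open the outer mitochondrial membrane, and caspases follow. ESCs divide fast and are known for being quick to undergo apoptosis. Their main miRNAs come from the Mir290 to Mir295 cluster and from the Mir17 and Mir106b clusters, and Bcl2l11 and Casp2 are known targets of these families.

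The mature miRNAs of these clusters are shown first, because the seeds (bases 2 to 8, in capitals) define which sites in the 10 genes are of interest. The sequences are those of RefSeq on GRCm38.p6, and 4 of the 5 seed groups are represented by 1 miRNA each, with a pair for the Mir290 to Mir295 cluster.
miR-291a-3p: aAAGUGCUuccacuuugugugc
miR-294-3p: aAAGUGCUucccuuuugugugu
miR-17-5p: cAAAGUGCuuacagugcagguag
miR-25-3p: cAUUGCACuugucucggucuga
miR-19b-3p: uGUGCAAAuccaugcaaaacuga
miR-18a-5p: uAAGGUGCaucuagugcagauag
miR-295-3p shares the seed AAGUGCU of miR-291a-3p and miR-294-3p. miR-20a-5p, miR-93-5p and miR-106b-5p share AAAGUGC with miR-17-5p, miR-92a-3p shares AUUGCAC with miR-25-3p, and miR-19a-3p shares GUGCAAA with miR-19b-3p. The seeds AAGUGCU and AAAGUGC hold the same 6-base core, AAGUGC, shifted by 1 base.

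The hairpins of these clusters served as a check of the labels, since Drosha cuts them and the RNA table gave no value per library for Drosha or Dicer1. The Drosha table held 13 pile-up sites in 9 of these hairpins, and 12 of the 13 were called lower in the Drosha-deficient libraries. The 13 log2 fold changes lay between −3.76 and −1.05. A call needed an adjusted p (FDR, limma with Benjamini-Hochberg adjustment over all sites of a table) under 0.05 and a log2 fold change past 1.5 in either direction, and 37.6% of the 3919 sites in the table were called lower and 9.57% higher (1473 and 375 sites, or 871 and 602 with the libraries centred on their median site). The Dicer table held 11 sites in 10 hairpins, whose median change was −0.25 on the log2 scale, and none was called. Of all 4666 sites of the Dicer table, limma called 0% lower and 0% higher, and 459 had an unadjusted p under 0.05. The direction of the hairpin sites in the Drosha libraries was thus that of the labels. This is a weak check, since the authors chose sites by their pile-up in the controls, with a classifier trained on miRNA sites.

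The level of the 10 genes in RNA-seq was available as the authors' mean log2 CPM (read counts scaled to 1e+06 per library) over all 6 libraries, control and Drosha-deficient together. No value per library was used, so a level here has no spread, no order between neighbouring genes can be tested, and nothing can be said from it about a change after loss of Drosha. To compare genes, the mean was divided by the length of the exons in GENCODE. On this scale, log2 CPM per kb of exon, the median of the 10 genes was 5.58 and that of all genes was 1.05. All 10 lay above the median of all genes, and 9 of 10 lay above the median of the 14552 genes with a mean log2 CPM of at least 0, with Bcl2l11 as the exception.

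p53 and its ligase stood at nearly the same level. Trp53 had a mean log2 CPM of 7.62 and 5.60 log2 CPM per kb, higher than 94.6% of all genes. Mdm2 had a mean log2 CPM of 7.91 and 5.56 log2 CPM per kb, higher than 94.4%. A processed copy of Trp53 in the annotation could share its reads, so the value of Trp53 is uncertain to that extent. The remaining targets that are not of the BCL2 family were higher. Ccng1, which encodes cyclin G1, reached 7.40 log2 CPM per kb (98.8% of genes lower), and Trp53inp1, which encodes a stress-induced nuclear protein, reached 6.32 (97.0% lower).

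Among the 5 BCL2 family genes of the 10, the guard Mcl1 had the highest level per kb and the BH3-only gene Bcl2l11 the lowest. Mcl1, which keeps the mitochondrial pore closed, had 7.65 log2 CPM per kb, or 201.3 CPM per kb, and 99.0% of all genes were lower. Bax, which forms the pore, had 6.54 log2 CPM per kb (97.6% lower). The BH3-only genes lay below both. Pmaip1, which encodes Noxa and binds Mcl1, had 5.10 log2 CPM per kb. Bbc3, which encodes Puma, had 4.65. Bcl2l11, which encodes Bim, had 2.08 log2 CPM per kb, or 4.2 CPM per kb, and only 60.1% of all genes were lower. Bcl2l11 was the lowest of the 10 genes. Casp2, an initiator caspase tied to p53 through the PIDDosome, was next at 3.11 log2 CPM per kb (72.3% lower). The 2 known targets of the ESC miRNA clusters thus had the lowest values per kb, in a mean that pools cells with and without Drosha. For Casp2 this rests on its long exons (7057 nt), since before division by length its mean log2 CPM of 5.92 was above the 5.73 of Bbc3, while Bcl2l11 was lowest on both scales (5.08). Ccng1, Mcl1 and Trp53inp1, whose 3′ UTRs also hold matches to these seeds (below), were among the highest, at 7.40, 7.65 and 6.32 log2 CPM per kb. Whether seed matches bear on these levels was not tested.

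**Figure D1:**
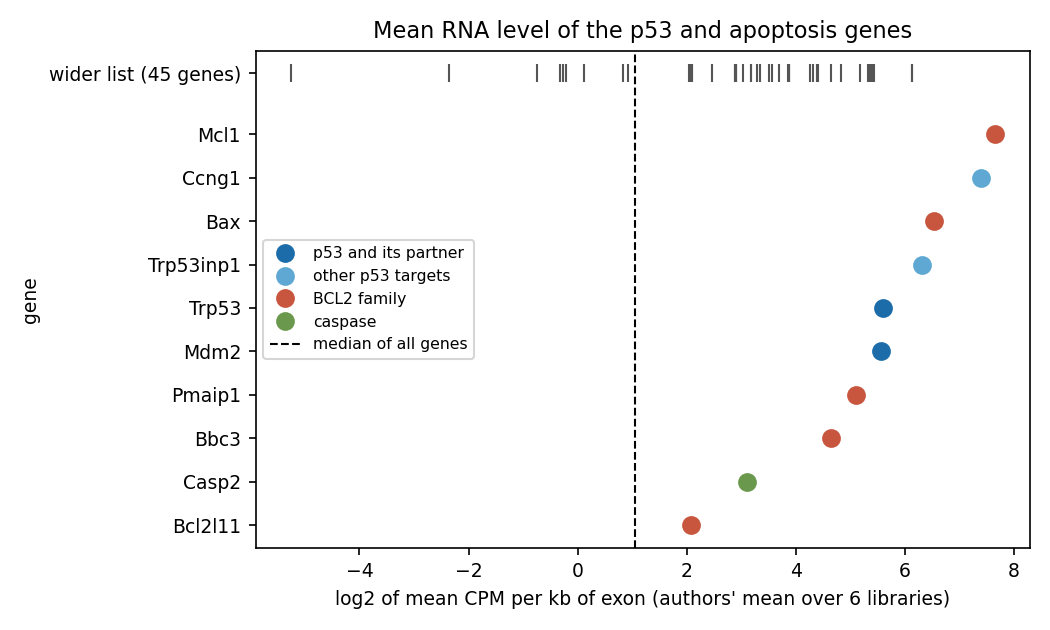
Mean RNA level per kb of exon, on a log2 scale, for each of the 10 genes (points, coloured by role) and for the 45 genes of a wider p53 and apoptosis list (ticks), with the median of all genes as a dashed line at 1.05. Every point lies to the right of that line, from Bcl2l11 at 2.08 to Mcl1 at 7.65.

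A wider list of 46 p53 targets, BCL2 family genes and caspases with their regulators gives the setting. Of these, 45 were in the table, with a median of 3.29 log2 CPM per kb, and 36 lay above the median of all genes. The p53 targets were the group with most members above it (21 of 22), against 8 of 11 for the BCL2 family and 7 of 12 for the caspases and their regulators. The highest by mean log2 CPM were Mdm4, the partner of Mdm2 in binding p53, at 9.28 (5.40 per kb), and Ei24, a p53-induced gene of the endoplasmic reticulum, at 8.42 (6.14 per kb). The lowest were the BCL2 family genes Bcl2 and Bcl2l10, at −2.07 each (−5.26 and −2.35 per kb). The guards Mcl1 and Bcl2 thus stood at opposite ends of these lists, at a mean log2 CPM of 9.43 and −2.07. Bcl2 and Bcl2l10 had a mean of only 0.2 CPM each, so their values per kb are uncertain. For Bcl2, 16.3% of all genes were lower by mean log2 CPM, but 1.2% per kb. Cycs, which encodes cytochrome c, has near-identical copies in the genome, so its low level of 1.01 mean log2 CPM is uncertain.

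Markers of both cell types in the culture were read on the same scale. All 6 ESC markers lay above the median of all genes, with a median of 6.96 log2 CPM per kb and Pou5f1 at 8.61. Of 6 fibroblast markers 5 lay above it, with a median of 1.55, and Vim at 5.26 and Col1a1 at 3.89 were the highest. S100a4 was at −1.17. In bulk samples such as these, fewer cells of a type and less RNA per cell cannot be told apart, and the share of each level that came from the feeder cells was not tested.

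Matches to the seeds were then counted in the longest annotated 3′ UTR of each gene, without the stop codon. A match is the exact complement of seed bases 2 to 8, which reads AGCACTT for miR-291a-3p, miR-294-3p and miR-295-3p, GCACTTT for the miR-17-5p group, GTGCAAT for miR-25-3p and miR-92a-3p, TTTGCAC for miR-19a-3p and miR-19b-3p and GCACCTT for miR-18a-5p. The search was on the strand of the transcript only, and a match is a description of the letters and no measured site. Of the 10 genes 5 held at least 1 match and 37.5% of all 15322 genes with a 3′ UTR did. The 10 genes also had longer 3′ UTRs, with a median of 2111 nt against 1085 nt for all genes. Those 5 genes were Bcl2l11, Casp2, Ccng1, Mcl1 and Trp53inp1. Together they held 19 matches, of which 4 pairs in 3 genes overlap, since AGCACTTT contains both of the first 2 motifs.

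Bcl2l11 held the most matches. The sites below are shown because they place 4 of its 8 matches and both matches of Casp2, each with its match in capitals, in GRCm38 on the plus strand.
Bcl2l11, miR-291a-3p group, chr2:128159759-128159788: tgcacagcctggtggaggAGCACTTtctaa
Bcl2l11, miR-17-5p group, chr2:128160434-128160463: ccagtctccccgactggaGCACTTTactgt
Bcl2l11, miR-19 group, chr2:128162389-128162418: ccctggcttcctttacgtTTTGCACtgatg
Bcl2l11, miR-25 group, chr2:128162431-128162460: gtaattgccactgtacctGTGCAATactgc
Casp2, miR-291a-3p group, chr6:42281540-42281569: tatgtgatataacctagaAGCACTTgtctc
Casp2, miR-17-5p group, chr6:42281971-42282000: ttactgcaggctgtaatgGCACTTTtgctt
The first 2 of these Bcl2l11 sites carry an AGCACTTT run, so each is also a match for the other of the first 2 groups. The Casp2 sites are separate places and do not overlap.

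The 3′ UTR of Bcl2l11 is 4218 nt long, and its 8 matches were 3 for the miR-291a-3p group, 2 for the miR-17-5p group, 2 for the miR-25 group and 1 for the miR-19 group. It is also longer than 93.6% of all 3′ UTRs, and among the 973 genes whose 3′ UTR is within 1.2-fold of that length, 40.9% held a match for the miR-291a-3p group and 34.1% for the miR-17-5p group. The median gene of that length held 2 matches of any of the 5 groups. Casp2, with 2031 nt, held 1 match each for the miR-291a-3p and the miR-17-5p groups. Among 2029 genes of like length, 22.9% held a match for the former and 17.8% for the latter. Each of these 2 groups was therefore matched in a minority of genes at these lengths, though in a larger share than the 16.5% and 13.5% of all genes. Whether Bcl2l11 or Casp2 held more matches than genes of like length was not tested.

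Ccng1, Mcl1 and Trp53inp1 held 3 matches each. All 3 held 1 match for the miR-291a-3p group and 1 for the miR-17-5p group, which overlap in Mcl1 and in Trp53inp1 and are separate in Ccng1. The third match was for miR-18a-5p in Ccng1, for the miR-25 group in Mcl1, which starts at base 9 after the stop codon, and for the miR-19 group in Trp53inp1. Bax, Bbc3, Mdm2, Pmaip1 and Trp53 held none, and their 3′ UTRs ranged from 224 nt in Bax to 2192 nt in Pmaip1. Trp53 and its ligase, and the BH3-only genes Bbc3 and Pmaip1, were thus without these letters, whereas Bcl2l11 held 4 of the 5 groups. The 3′ UTR of Bcl2l11, at 4218 nt, is longer than any of theirs, so this contrast is also one of length. Across the genome 16.5% of genes held a match for the miR-291a-3p group, 13.5% for the miR-17-5p group, 7.1% for the miR-25 group, 12.5% for the miR-19 group and 8.7% for miR-18a-5p.

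**Figure D2:**
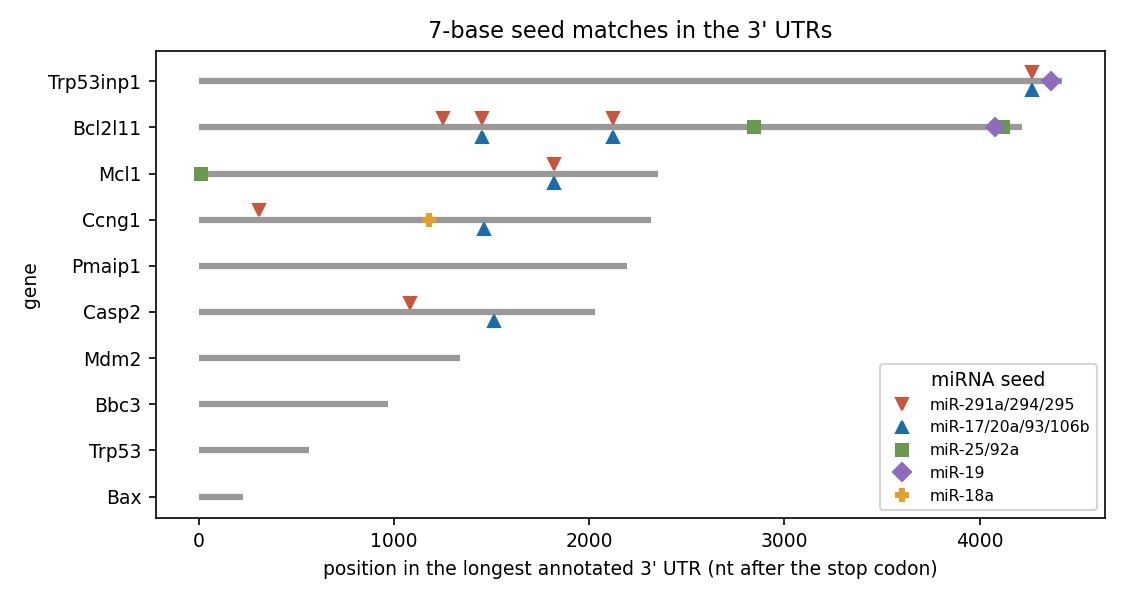
Position of each 7-base seed match (symbols, by miRNA group) along the longest annotated 3′ UTR (grey line, in nt after the stop codon) of the 10 genes, ordered by length. Bcl2l11 holds 8 matches, Casp2 holds 2, Ccng1, Mcl1 and Trp53inp1 hold 3 each, and 5 genes hold none.

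Degradome-seq was then read for 5′ monophosphate ends in RNA of these genes. None of the 10 genes held an exonic pile-up site on its own strand, among 3919 sites in the Drosha table and 4666 in the Dicer table. Of these sites 828 and 890 were exonic on the strand of a gene, against 22376 genes in the RNA-seq table. Most genes therefore held no such site, and its absence is not particular to the 10 genes. Across whole gene bodies, 1 gene held sites, Mdm2, with 2 sites in the Drosha table and 1 of these in the Dicer table. The other 9 genes, Bcl2l11 and Casp2 included, held none, exonic or intronic. The tables list only positions that the authors' classifier kept, so a gene without a site is one without a listed site, and its depth was not analysed here.

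Both Mdm2 sites lie on the minus strand of chromosome 10 and both are exactly the first base of an intron of Mdm2-201. They are shown with the 15 bases before the site and the 15 bases that start at it, the first 2 of these in capitals, on GRCm38.
Mdm2 intron 10, chr10:117692567-117692596: gatgaggatgatgagGTgggtttctgtgtc
Mdm2 intron 4, chr10:117705140-117705169: tacactatgaaagagGTgagcagaactgag
The capitals are the GT of the 5′ splice site. In both the exon ends in GAG and the 30 bases that start at the site occur once in the genome. The first site follows exon 10, which is 156 nt long, in an intron of 1359 nt, 18177 nt from the start of the gene, and 4 of the 9 annotated transcripts use this exon end. The second follows exon 4, which is 75 nt long, in an intron of 2819 nt, 5604 nt from the start, and 7 of the 9 transcripts use it. As background, debranching of an excised intron leaves a 5′ monophosphate on its first base, and RNase III cleavage leaves one too. Which of these made the Mdm2 ends was not tested.

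**Figure D3:**
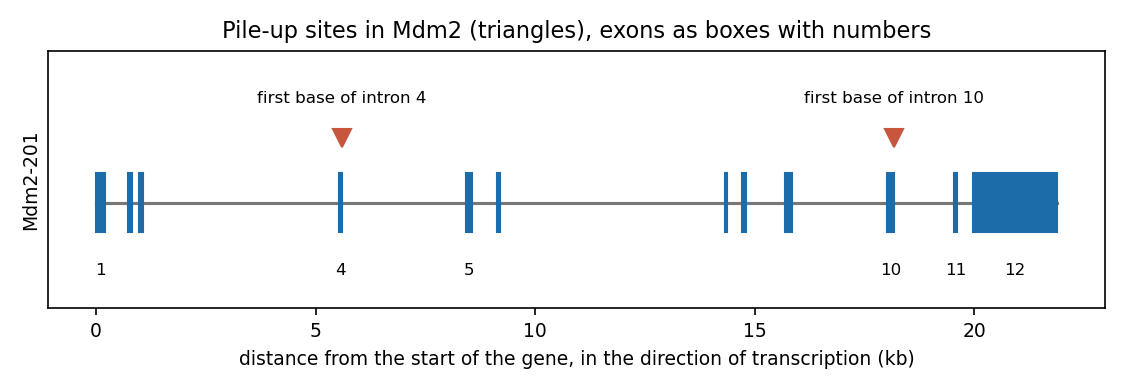
Map of Mdm2-201 in the direction of transcription, with exons as boxes (some numbered below), introns as a line, and the pile-up sites as triangles, against distance from the start of the gene in kb. The sites lie directly after exon 4 and exon 10, at 5604 and 18177 nt.

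At the intron 10 site the Drosha controls had 2.72 and 1.68 RPM (read starts there, scaled to 1e+06 mapped reads) and the Drosha-deficient libraries had 0.968 and 0.869 RPM, all above the 0.105 RPM that 3 reads make at most. Both deficient libraries were lower than both controls, as at 59.9% of all sites of that table (21.2% of sites were higher without overlap). The log2 fold change was −1.14 (SE 0.46, n = 2 and 2) with an adjusted p of 0.0379 by limma, so the site passed the adjusted p but not the fold threshold and was not called. With any 1 library left out, the adjusted p lay between 0.0571 and 0.277. With the libraries centred on the median of all sites, which moved the median log2 fold change of the table from −0.93 by 0.59 to −0.34, it was −0.54 (SE 0.39) with an adjusted p of 0.243 by limma. Relative to the other sites of the table, the decrease in Mdm2 was therefore not larger than its error allowed to detect.

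In the Dicer table the same site had 2.95 and 3.70 RPM in the controls while the Dicer-deficient libraries had 1.76 and 1.01 RPM. These too did not overlap, as at 27.4% of the sites of that table on the lower side (16.8% on the higher side). The log2 fold change was −1.25 (SE 0.46, n = 2 and 2), with an unadjusted p of 0.0324 and an adjusted p of 0.47 by limma, so it was not called. With the replicate number as a block its adjusted p was 0.0682 by limma, also not called, while 67 sites of the table were called lower and 119 higher. The decreases in Drosha-deficient and in Dicer-deficient libraries were of like size, and their difference, tested as an interaction over 2595 shared sites, was 0.11 (SE 0.66, adjusted p of 0.918 by limma), a test that 4.78% of the shared sites passed. The 95% interval of that difference ran from −1.39 to 1.61, so a difference as large as the decrease itself was not detectable here.

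At the intron 4 site the Drosha controls had 1.57 and 0.616 RPM and the deficient libraries had 0.355 and 0.417 RPM. The groups did not overlap, as on the lower side at 59.9% of all sites of the Drosha table. The controls differed from each other more than the lower control differed from the deficient libraries. The log2 fold change was −1.17 (SE 0.57, n = 2 and 2) with an adjusted p of 0.0819 by limma, and the site was not called. With centring it was −0.58 (adjusted p of 0.343 by limma). It rested on single control libraries. Without control replicate 2 it was −1.78 with an adjusted p of 0.0488, which would be a call, and without control replicate 1 it was −0.56 with an adjusted p of 0.431. The intron 10 site changed less, to −0.80 without control replicate 1 and −1.47 without control replicate 2.

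**Figure D4:**
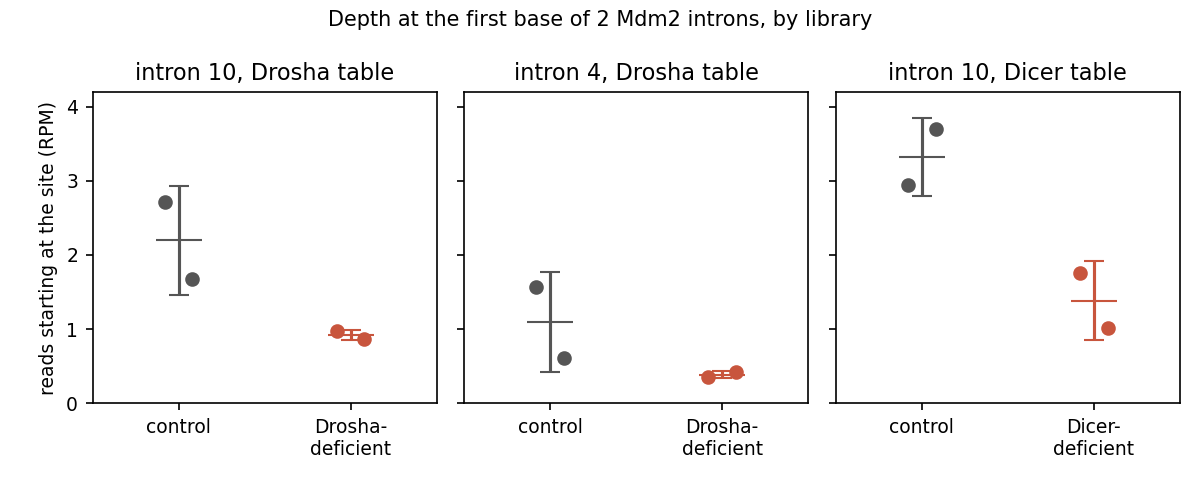
Reads starting at each Mdm2 site, in RPM, for each library (points), with the mean (horizontal bar) and SD (whiskers) of 2 libraries a group, for the intron 10 and intron 4 sites of the Drosha table and the intron 10 site of the Dicer table. Deficient libraries lie below controls in each panel, with the lowest control at 0.616 RPM for intron 4.

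The Mdm2 sites belong to a class of sites, defined after their position had been seen. Of 635 intronic sites of the Drosha table that read in the sense of the gene, 180 (28.3%) were the first base of the intron, and 240 of 965 (24.9%) in the Dicer table. Of these 179 and 239 began with GT. The GT follows from the definition of the class, so it is a check of the placement and no finding. The Mdm2 sites were thus 2 of many sites placed at a 5′ splice site.

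In the Drosha table the log2 fold change of the class had a median of −0.64, with quartiles at −1.12 and 0.13, and 21 of the 180 were called lower (11.7%) and 7 higher. This is below the 37.6% called lower of all sites and close to the 13.6% of the other intronic sites, of which 62 were called lower and 81 higher, and the difference was not tested. All sites are a mixed group, in which 1737 lay opposite a gene. The bases TCT, with which the RNA linker ligated to 5′ monophosphate ends closes, preceded 30.8% of all sites and 0.6% of the class. By definition of the class the letters before its sites are those of exon ends, so its low share is no finding. Whether the share over all sites bears on the calls was not tested. Both Mdm2 sites were in the lower part of the range of the class, with 44 of the 180 sites lower than intron 10 and 42 lower than intron 4. Other intronic sites had a median of 0.04 (455 sites) and all sites one of −0.93. In the Dicer table the class had a median of −0.19, and 11 of the 240 sites (4.58%) were lower than the Mdm2 intron 10 site. The Mdm2 site thus stood nearer the low end of its class in the Dicer table than in the Drosha table. The class was narrower in the Dicer table, with quartiles at −0.48 and 0.22, while the Mdm2 changes of −1.14 and −1.25 were of like size. The place in the class is therefore no sign of a larger decrease in Dicer-deficient cells. It is a description, since no site of the Dicer table was called without the replicate block.

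**Figure D5:**
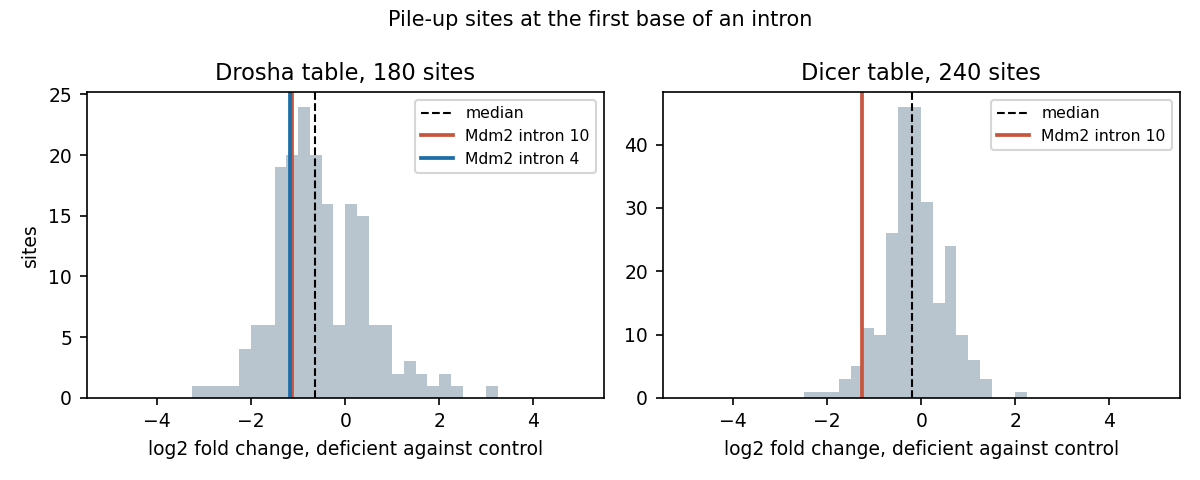
Number of sites at the first base of an intron by log2 fold change of deficient against control libraries, in bins of 0.25, for the Drosha table (180 sites) and the Dicer table (240 sites), with the median as a dashed line and the Mdm2 sites as solid lines. The Mdm2 lines lie left of the medians, at −1.14 and −1.17 against −0.64 and at −1.25 against −0.19.

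Of the wider list, 3 genes held an exonic pile-up site in the sense of the gene, and none of these sites was called. Sites of this kind numbered 828 in the Drosha table and 890 in the Dicer table, and the share of all genes that held one was not counted. Of all sites, 37.6% were called lower and 9.57% higher in the Drosha table, and 0% each way in the Dicer table. Bad, a BH3-only gene, held an exonic site at position 6942601 of chromosome 19. It had 10.4 and 6.40 RPM in the Drosha controls against 13.1 and 12 RPM in the deficient libraries, a log2 fold change of 0.61 (adjusted p of 0.149 by limma). With centring this was 1.21, with an adjusted p of 0.00327 by limma but under the fold threshold, and it was 0.96 without control replicate 1 and 0.27 without control replicate 2. In the Dicer table the Bad site had 4.40 and 4.98 RPM against 8.41 and 9.96 RPM, a log2 fold change of 0.95 (adjusted p of 0.47 by limma). Deficient libraries were above controls in both tables, without overlap, as at 21.2% of all sites of the Drosha table and 16.8% of the Dicer table. The difference between the tables was −0.34 (SE 0.49, adjusted p of 0.63 by limma).

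Bik, also BH3-only, held a site at its annotated first base, with 1.78 and 0.958 RPM in the Drosha controls and 1.19 and 1.15 RPM in the deficient libraries. These values overlap, and the log2 fold change of −0.15 turned to 0.44 with centring and to 0.26 without control replicate 1. Gadd45a, a p53 target in the response to DNA damage, held a site in the Dicer table, with 1.10 and 0.816 RPM in the controls and 1.01 RPM in both deficient libraries. These values overlap as well, and the fold change was 0.08 on the log2 scale, or −0.11 without Dicer control replicate 2. Over the 10 genes and the wider list together, no exonic site was called in either table. In the Dicer table that held for any gene, since none of its 4666 sites was called without a replicate block. In the Drosha table it rests on the Bad and Bik sites alone.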

How the data were processed

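Degradome-seq values are RPM that the authors deposited for each library at pile-up sites. The authors trimmed the reads with Trimmomatic 0.38.0, aligned them to GRCm38 with STAR, counted read starts and kept sites by a classifier trained on miRNA sites. By the paper's methods a site had to be classified as a pile-up in both control replicates, so sites entered through the controls. The RPM steps implied 28.7 to 34.5 mapped reads a library, in units of 1e+06, so that 3 reads, the counting floor, were 0.087 to 0.105 RPM. For RNA-seq, the authors deposited the mean log2 CPM of each gene over all libraries, from edgeR. The deposited fold changes, F statistics, p-values and FDRs of all tables are the authors' comparisons and were not used here.

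Log2(RPM + 0.1) was tested with limma 3.58.1 (R 4.3.3), with a variance trend, over all sites, and adjusted by Benjamini-Hochberg. The steps of that script were tested on simulated data. The difference between tables was an interaction at shared sites. Genes were placed with GENCODE vM21 on the same build and exon lengths were the union over transcripts (22353 of 22376 genes had one). Sequences came from that genome and RefSeq GRCm38.p6.

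The 10 genes, the wider list and the markers were chosen with earlier results of these data known. Named are all 10 genes, every site in them, and genes of the wider list with an exonic site on their strand or with the 2 highest and 2 lowest mean levels. Sites were planned as exonic. Since no gene of the 10 held such a site, sites anywhere in the gene body, on either strand, were taken as well, and the Mdm2 sites come from there. Alternatives were pseudocounts of 0.5 and 1 RPM, a minimum mean of 0.5 RPM, median centring, no trend, a replicate block and leaving out each library. For levels they were matching by identifier and a minimum of 0 mean log2 CPM.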

Additional observations from a re-analysis of the deposited data

Results flagged for a closer look

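A site in an intron of Sesn1, a p53 target that encodes sestrin 1, was chosen after its values were seen and differed between the Drosha and the Dicer comparison. At position 41818901 of chromosome 10 it had 1.99 and 1.06 RPM in the Drosha controls and 17.0 and 9.77 RPM in the Drosha-deficient libraries, which is 3.06 on the log2 scale (adjusted p of 2.5e-05 by limma). In the Dicer table it had 4.66 and 4.69 RPM against 6.18 and 5.77 RPM, a log2 fold change of 0.35. The difference between the comparisons was 2.71 (SE 0.58, adjusted p of 0.0442 by limma). The 30 bases that start at the site occur 1036 times in the genome and lie in a masked repeat. Whether reads of full length map to Sesn1 alone was not tested.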

How the results depend on the processing

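Counting sites in exons gave 0 sites in the 10 genes, against 2 in the Drosha table and 1 in the Dicer table anywhere in the gene body. With 1 library left out, the log2 fold change of the Mdm2 intron 10 site (position 117692581) ranged from −1.47 to −0.80 in the Drosha table and from −1.62 to −0.88 in the Dicer table, and that of the intron 4 site (position 117705154) from −1.78 to −0.56. The replicate numbers are not stated to pair the libraries (correlation of same-number deviations 0.13 and 0.53 over 2 pairs a table). The replicate block gave −1.14 (adjusted p of 0.0175 by limma) and −1.17 (0.0649) in the Drosha table and −1.25 (0.0682) in the Dicer table, and called no Mdm2 site. In the Drosha table it left Bad at 0.61 with an adjusted p of 0.0446, also not called. It moved the Dicer calls from 0 to 67 lower and 119 higher. With a pseudocount of 1 RPM the fold changes were −0.72, −0.56 and −0.87, with the same calls. Calls over the Drosha table fell from 1473 lower to 548 and 953 with pseudocounts of 1 and 0.5 RPM and to 907 without control replicate 1, and centring gave 871 lower and 602 higher in place of 375. Without Dicer-deficient replicate 2 the Dicer table had 1 lower and 13 higher. Bik turned to 0.44 with centring and 0.26 without Drosha control replicate 1, Gadd45a to −0.11 without Dicer control replicate 2 (up to 0.28 without control replicate 1), and a further Sesn1 intron site (0.38) to −0.08 without Drosha control replicate 2 (up to 0.84 without control replicate 1). The cause was not tested. With 2 libraries a group and sites of 0.355 to 3.70 RPM, smaller changes in Mdm2 were not detectable.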

Other observations

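Outside the naming rule, and seen only with the values known, a site opposite an intron of Bmf, a BH3-only gene, had 1.60 and 1.13 RPM in the Drosha controls and 8.87 and 7.26 RPM in the Drosha-deficient libraries, or 2.49 on the log2 scale (adjusted p of 7.4e-05 by limma). Its 30 bases occur 132 times in the genome, in a masked repeat. An intronic site of Casp8, an initiator caspase, had 33.4 and 15.7 RPM in the Dicer controls while the Dicer-deficient libraries had 12.7 and 12.4 RPM, a log2 fold change of −0.86 (adjusted p of 0.543 by limma), and its 30 bases occur 3 times. A site opposite an exon of Cycs, which encodes cytochrome c, had a log2 fold change of 0.22 in the Dicer table.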
